A study of Mus musculus with 9 samples.

Results

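Immediate early genes were followed in mouse liver as a set of 10: the AP-1 subunit genes Fos, Fosb, Jun, Junb and Jund, the related bZIP gene Atf3, the transcription factor gene Egr1, the nuclear response gene Ier2, and Btg2 and Zfp36, whose products act on mRNA turnover. The members were chosen by symbol, with earlier results of these data known. Each was matched to its Ensembl gene ID, and all 10 were found among the 45513 IDs of the count table. Low counts left 9 of the 10, all but Fosb, among the 12102 genes tested. The libraries were made from poly(A)-enriched liver RNA of C57BL/6 mice and fell into 3 groups of 3 after 9 weeks: high fat diet with B-LGND2, high fat diet with vehicle, and normal diet with vehicle. B-LGND2 is known here by its code name, and the series title presents it as a ligand of estrogen receptor beta. The strain and the tissue were shared by all groups, and no genotype or allele was given. Dose, route, vehicle, diet composition, sex and hour of collection were not given in the sources used here. Nothing in the labels pairs the mice or names a batch, so p-values measure the spread between these 9 livers.

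Immediate early genes are transcribed from preformed factors within minutes of a stimulus, without new protein synthesis, and most of their mRNAs are short-lived. Growth factors and stress reach them through MAP kinases acting on SRF and its ternary complex partners, and hormones that raise cyclic AMP reach them through CREB. In liver they are known for their response to feeding, glucagon, injury and partial hepatectomy, and also to the handling of tissue before it is frozen. Fos and Jun family proteins pair to form AP-1, EGR1 binds GC-rich sites, BTG2 recruits deadenylase, and ZFP36 (tristetraprolin) binds AU-rich elements in 3′ UTRs and promotes decay of the mRNA.

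Averaged over its members on a standardised log scale, the set was highest in high fat vehicle livers. By mean CPM, Jund, Atf3 and Ier2 were instead highest with B-LGND2, with overlap between groups. Against normal diet vehicle livers, Junb, Jun and Btg2 rose on the high fat diet, by 2.88-fold, 3.06-fold and 2.32-fold. With B-LGND2 on the high fat diet, Egr1, Junb, Btg2 and Zfp36 fell below high fat vehicle livers, by 5.63-fold, 3.86-fold, 2.05-fold and 1.96-fold. Jund, Atf3 and Ier2 passed no test in either comparison, and B-LGND2 livers against normal diet vehicle livers gave no call among the members. Both main comparisons use the high fat vehicle livers, so they are not independent of each other.

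Library totals ran from 5778978 to 10322972 counts. Hepatocyte markers (Alb, Apoa1, Ttr and Serpina1a) summed to 58786 to 96718 counts per 1e6 counts (CPM) in B-LGND2 livers, 62628 to 66048 CPM in high fat vehicle livers and 61721 to 70965 CPM in normal diet vehicle livers, which fits the labelled tissue. The groups also differed in composition. Ribosomal RNA models took 4.31% to 6.19% of counts in B-LGND2 libraries, 0.901% to 1.44% in high fat vehicle libraries and 3.16% to 3.74% in normal diet vehicle libraries. How far each gene stood above its average over libraries was related to transcript length, with Spearman correlations across genes of -0.241 to 0.0826 in B-LGND2 libraries, 0.299 to 0.359 in high fat vehicle libraries and -0.504 to 0.204 in normal diet vehicle libraries. B-LGND2 replicate 1 had the strongest such correlation with GC content, 0.501, and normal diet vehicle replicate 1 the highest mitochondrial share, 12.7%. Their part in the results below was not tested, except that a fit with offsets for transcript length and GC content was run, and values without each library are given.

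Of the 9 members tested, 3 were called higher and 0 lower in high fat vehicle against normal diet vehicle livers, where 1.50% of all genes tested were called higher and 1.49% lower. A call here means that the quasi-likelihood test of edgeR gave an adjusted p under 0.05, adjusted by Benjamini and Hochberg's method over all 12102 genes. In 4 of the 9, Fos, Jun, Junb and Btg2, the 2 groups were fully separated with high fat vehicle higher, against 15.4% of all genes tested in that direction and 30.1% in either. At an unadjusted p under 0.05 there were 6 of the 9, against 22.4% of all genes. The median log2 fold change of the 9 was 1.21, against 0.01 over all genes. In the B-LGND2 comparison 4 of the 9 were called lower and 0 higher, where 2.56% of all genes tested were called lower and 3.07% higher, and the same 4 did not overlap, against 17.2% of all genes. At an unadjusted p under 0.05 there were no others, against 23.7% of all genes. Their median log2 fold change was -0.97, against 0.00 over all genes. These shares and medians describe the members that passed the filter. The members were chosen with earlier results of these data known, so the shares and medians are no independent evidence about the set. Fos passed the filter through the high fat vehicle libraries, so a high level there was a condition of its being tested. Atf3 passed the filter through libraries of both high fat groups and none of the normal diet group.

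**Figure D1:**
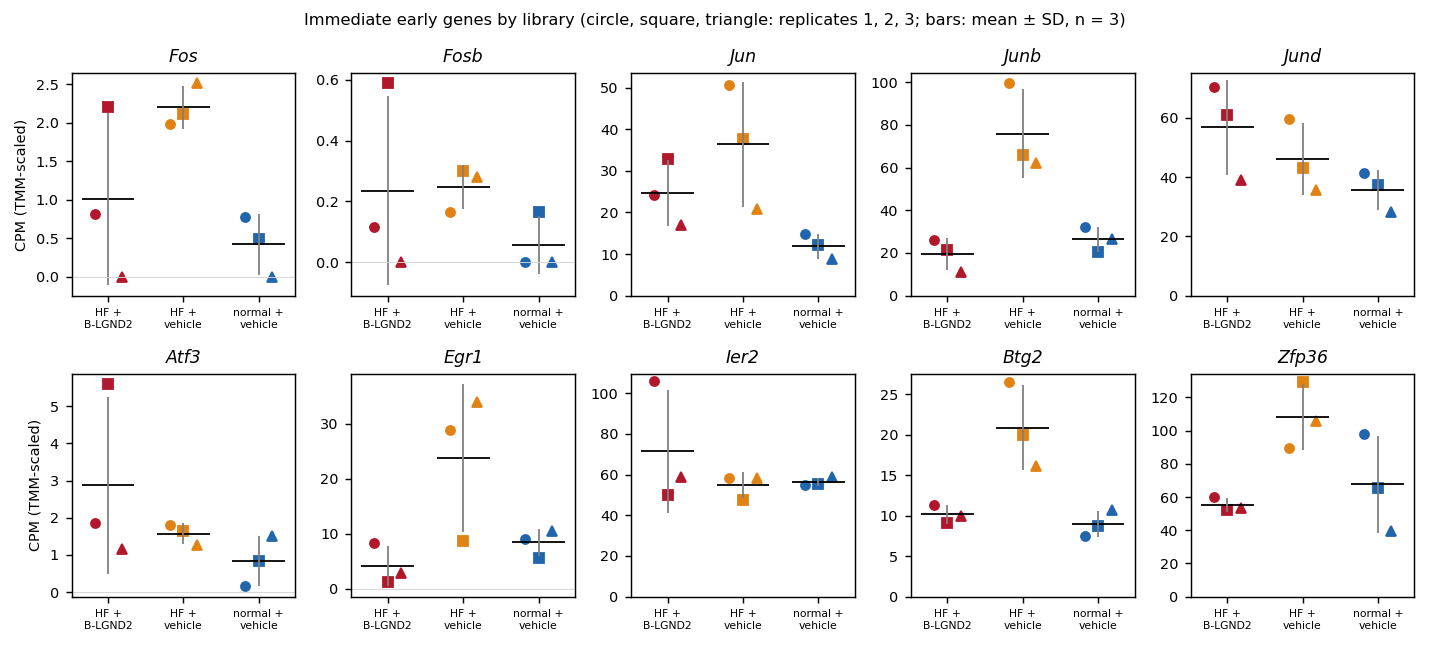
TMM-scaled CPM (vertical axes, linear, each panel on its own scale) of the 10 immediate early genes in the 9 livers, in columns for high fat with B-LGND2, high fat with vehicle and normal diet with vehicle; circles, squares and triangles are replicates 1, 2 and 3, and bars are the mean ± SD of 3 livers. All 3 high fat vehicle livers lie above both other groups for Junb and Btg2, whereas Ier2 is nearly level apart from B-LGND2 replicate 1 at 106 CPM.

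The promoters of the 3 genes called for diet, with Fos for comparison, are shown because these genes are known to be driven by nearby CRE and AP-1-like elements. Each line gives the 250 bases before the transcription start in RefSeq (GRCm38.p6), 5′ to 3′ on the gene's strand. Capitals mark matches to TGACNTCA (the CRE and ATF/Jun form) and to TGACG (its core), on the gene's strand as printed, and to TATAAA.
Jun: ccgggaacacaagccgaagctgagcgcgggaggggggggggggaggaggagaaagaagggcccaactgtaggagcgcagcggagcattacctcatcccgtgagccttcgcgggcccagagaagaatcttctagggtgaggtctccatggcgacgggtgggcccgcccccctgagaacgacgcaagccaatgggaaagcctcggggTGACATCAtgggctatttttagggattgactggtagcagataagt
Junb: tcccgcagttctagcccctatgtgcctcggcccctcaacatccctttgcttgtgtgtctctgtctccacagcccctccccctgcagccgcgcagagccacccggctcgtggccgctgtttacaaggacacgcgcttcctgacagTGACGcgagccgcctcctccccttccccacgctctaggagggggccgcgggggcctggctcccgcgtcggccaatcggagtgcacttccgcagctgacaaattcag
Btg2: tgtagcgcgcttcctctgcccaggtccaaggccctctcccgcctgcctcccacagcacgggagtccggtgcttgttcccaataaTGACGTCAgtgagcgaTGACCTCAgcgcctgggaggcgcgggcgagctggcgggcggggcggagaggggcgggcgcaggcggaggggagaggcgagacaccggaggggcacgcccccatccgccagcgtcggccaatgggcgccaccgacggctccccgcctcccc
Fos: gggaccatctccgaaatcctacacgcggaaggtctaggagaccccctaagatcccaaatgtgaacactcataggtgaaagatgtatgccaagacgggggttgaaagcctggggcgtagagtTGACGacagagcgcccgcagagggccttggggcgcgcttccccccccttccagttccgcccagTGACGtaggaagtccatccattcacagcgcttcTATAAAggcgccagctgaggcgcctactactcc

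These windows lie at chr4:95052223-95052472 (minus strand, Jun), chr8:84978749-84978998 (minus, Junb), chr1:134079156-134079405 (minus, Btg2) and chr12:85473640-85473889 (plus, Fos). TGACNTCA, searched on both strands, lay 45 to 38 bases before the Jun start and at 2 places in the Btg2 window, in 2 of the 8 members with a window and in 7.49% of all 32851 windows. TGACG, which is part of TGACNTCA where its N is G, was in 5 of the 8, in Fos, Fosb, Junb, Atf3 and Btg2, and in 17.8% of all windows. The classic AP-1 site TGANTCA was in 0 of the 8 and in 6.75% of all windows. The SRF site (CArG box) was in 1 of the 8, Zfp36, and in 1.47%, and the EGR-like GCGNGGGCG was in 3, Fosb, Btg2 and Zfp36, and in 4.7%. The GC box GGGCGG was in 6 of the 8 and in 32.7%, and TATAAA on the gene's strand was in 1, Fos, and in 7.59%. Egr1 and Ier2 had no window, and sites farther than 250 bases before the start were not searched in any member. Presence of these letters is a description of the window and not of binding.

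Junb (ENSMUSG00000052837, chr8:84974484-84978718, minus strand, GRCm38) encodes the Jun protein that can restrain JUN and is itself an AP-1 target. It had 224, 146 and 67 counts in B-LGND2 livers, 605, 437 and 446 in high fat vehicle livers and 205, 124 and 192 in normal diet vehicle livers. As CPM these were 26.0, 21.5 and 11.2 with B-LGND2, 99.8, 65.7 and 62.2 in high fat vehicle livers, and 32.0, 20.5 and 26.6 in normal diet vehicle livers. Every high fat vehicle liver was therefore above all 6 others, and the outer groups overlapped. The mean was 75.9 ± 20.8 CPM in high fat vehicle livers against 26.3 ± 5.74 CPM in normal diet vehicle livers (SD, n = 3 each), a log2 fold change of 1.52 (SE 0.30, adjusted p = 0.0200). With B-LGND2 it was 19.5 ± 7.59 CPM, a log2 fold change of -1.95 against high fat vehicle (SE 0.30, adjusted p = 0.00309). In bulk liver, fewer cells of a type and less RNA per cell cannot be told apart. Of the 7 calls among the members, the fall of Junb with B-LGND2 was the one that passed whichever of the 9 livers was omitted (largest adjusted p = 0.0228).

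Jun (ENSMUSG00000052684, chr4:95049034-95052222, minus strand), the principal partner of FOS in AP-1 and a gene needed for liver regeneration, was called for diet, as Junb was, but not with B-LGND2. It had 24.2, 32.8 and 17.0 CPM in B-LGND2 livers, 50.6, 37.7 and 20.8 CPM in high fat vehicle livers, and 14.8, 12.1 and 8.71 CPM in normal diet vehicle livers. The high fat groups overlapped each other, and every liver of both lay above all 3 of the normal diet. High fat vehicle livers averaged 36.4 CPM (SD 15.0) and normal diet vehicle livers 11.9 CPM (SD 3.06), a log2 fold change of 1.62 (SE 0.33, adjusted p = 0.0228). Against high fat vehicle, the B-LGND2 log2 fold change was -0.56 (SE 0.32, adjusted p = 0.301, 95% interval -1.23 to 0.12). Against normal diet vehicle it was 1.06 (SE 0.33), and the adjusted p of 0.0972 did not pass.

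Jund (ENSMUSG00000071076, chr8:70698949-70700616, plus strand), the Jun gene that is expressed at a steady level in many resting cells, had 70.3, 61.1 and 39.1 CPM in B-LGND2 livers, 59.7, 43.0 and 35.8 CPM in high fat vehicle livers, and 41.5, 37.4 and 28.1 CPM in normal diet vehicle livers. The 3 groups overlapped. The log2 fold change was 0.37 for diet (SE 0.27, adjusted p = 0.431) and 0.30 for B-LGND2 against high fat vehicle (SE 0.26, adjusted p = 0.509). Jund is 67.1% GC, the 99.9th percentile of the protein-coding genes tested, and is also short. With offsets for transcript length and GC content together its diet log2 fold change became 0.87 (adjusted p = 0.0436) and its B-LGND2 value turned to -0.59 (adjusted p = 0.0914). An antisense model, Gm11175, covers 52.6% of its exon bases. The strand setting of the counting was not given in the sources used here, so reads of both cannot be told apart. The same holds for smaller stretches of Jun (7.3%, Junos), Junb (7.5%, Prdx2) and Zfp36 (3.6%, Gm44710).

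Fos (ENSMUSG00000021250, chr12:85473890-85477273, plus strand), the founding AP-1 gene, was near the detection limit. It had 7, 15 and 0 counts in B-LGND2 livers, 12, 14 and 18 in high fat vehicle livers, and 5, 3 and 0 in normal diet vehicle livers. The high fat vehicle livers were above all normal diet livers, and the B-LGND2 livers spanned both. A count of 0 allows up to 3 counts in that library, counting error alone. The diet log2 fold change was 2.37 (SE 0.89, adjusted p = 0.130), and the B-LGND2 value against high fat vehicle was -1.10 (SE 0.77, adjusted p = 0.399). Leaving out 1 library moved the diet value between 1.75 (without normal diet vehicle replicate 3) and 3.16 (without replicate 1), and the B-LGND2 value between -2.21 (without B-LGND2 replicate 2) and -0.57 (without replicate 3). Neither passed, and with no filter on low counts the diet value was called (adjusted p = 0.0353). Fosb (ENSMUSG00000003545, chr7:19302696-19310051, minus strand), a paralog of Fos, had 5 counts over the B-LGND2 livers, 5 over the high fat vehicle livers and 1 over the normal diet vehicle livers, too few for a comparison.

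Atf3 (ENSMUSG00000026628, chr1:191170296-191218039, minus strand) encodes a stress-induced bZIP repressor that also acts downstream of ATF4. It had 16, 38 and 7 counts with B-LGND2, 11, 11 and 9 in high fat vehicle livers, and 1, 5 and 11 in normal diet vehicle livers. Replicate 2 of the B-LGND2 group stood above the other 8 livers, and all 3 groups overlapped. The B-LGND2 log2 fold change against high fat vehicle was 0.86 (SE 0.63, adjusted p = 0.419) and -0.01 without that library. The diet value was 0.87 (SE 0.71, adjusted p = 0.498).

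Egr1 (ENSMUSG00000038418, chr18:34859823-34864984, plus strand), a zinc finger factor induced by growth factors and injury, differed widely between livers of 1 group. It had 71, 8 and 17 counts in B-LGND2 livers, 175, 57 and 243 in high fat vehicle livers, and 58, 34 and 76 in normal diet vehicle livers. In CPM these were 8.23, 1.18 and 2.83 with B-LGND2, 28.9, 8.57 and 33.9 in high fat vehicle livers, and 9.05, 5.62 and 10.5 in normal diet vehicle livers. High fat vehicle replicates 1 and 3 were above every other liver, whereas replicate 2 lay within the normal diet range. B-LGND2 livers averaged 4.08 ± 3.69 CPM and high fat vehicle livers 23.8 ± 13.4 CPM, a log2 fold change of -2.49 (SE 0.59, adjusted p = 0.0307). The size of this fall depended on single livers: it was -3.55 without B-LGND2 replicate 1 and -2.05 without replicate 2. The groups were separated by a narrow margin, 8.23 CPM at the top of the B-LGND2 group and 8.57 CPM at the bottom of the high fat vehicle group. For diet the log2 fold change was 1.49 (SE 0.56, adjusted p = 0.138), with overlap.

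Ier2 (ENSMUSG00000053560, chr8:84661331-84662852, minus strand), which encodes a nuclear protein of the immediate early response, passed no test. It had 106, 49.9 and 58.6 CPM in B-LGND2 livers, 58.4, 47.5 and 58.4 CPM in high fat vehicle livers, and 54.9, 55.2 and 58.8 CPM in normal diet vehicle livers. Replicate 1 of the B-LGND2 group was the single high liver. That library also had the strongest correlation with GC content, and Ier2 is 60.9% GC, but a link between them was not tested. The diet log2 fold change was -0.04 (SE 0.26, adjusted p = 0.945, 95% interval -0.59 to 0.51), and with scaling by library size alone it was 0.13. The B-LGND2 value against high fat vehicle was 0.39 (SE 0.26, adjusted p = 0.375, 95% interval -0.16 to 0.93). It was 0.11 with offsets for transcript length and GC content, and 0.01 without B-LGND2 replicate 1.

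Btg2 (ENSMUSG00000020423, chr1:134075170-134079120, minus strand), a p53 and growth factor target that slows proliferation, was highest in high fat vehicle livers, as Junb was. It had 11.4, 9.12 and 9.99 CPM in B-LGND2 livers, 26.6, 20.0 and 16.2 CPM in high fat vehicle livers, and 7.49, 8.76 and 10.6 CPM in normal diet vehicle livers. All 3 high fat vehicle livers were above the other 6, and the outer groups overlapped. Means were 10.2 ± 1.12 CPM with B-LGND2, 20.9 ± 5.25 CPM in high fat vehicle livers and 8.97 ± 1.59 CPM in normal diet vehicle livers (SD, n = 3 each). The log2 fold change was 1.21 for diet (SE 0.27, adjusted p = 0.0289) and -1.04 for B-LGND2 against high fat vehicle (SE 0.26, adjusted p = 0.0341). Between the outer groups it was 0.18 (SE 0.27, adjusted p = 0.765, 95% interval -0.39 to 0.75).

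Zfp36 (ENSMUSG00000044786, chr7:28376784-28380253, minus strand) encodes tristetraprolin, which destabilizes inflammatory and immediate early mRNAs, its own included. It had 60.1, 52.4 and 53.1 CPM in B-LGND2 livers, 89.5, 129 and 106 CPM in high fat vehicle livers, and 98.1, 65.2 and 39.6 CPM in normal diet vehicle livers. All B-LGND2 livers were below all high fat vehicle livers, and the normal diet livers spanned both. B-LGND2 livers averaged 55.2 ± 4.28 CPM and high fat vehicle livers 108 ± 20.1 CPM, a log2 fold change of -0.97 (SE 0.28, adjusted p = 0.0496), just inside the threshold. The diet log2 fold change was 0.68 (SE 0.28, adjusted p = 0.158). Without normal diet vehicle replicate 1, the library with the high mitochondrial share and the highest Zfp36 of its group, it was 1.05 (adjusted p = 0.0150), in a fit that called 1860 genes in all, against 362 with every liver.

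The AU-rich letters TATTTAT, the core to which tristetraprolin is known to bind, are shown because the choice by name did not use them and more members held them than other liver genes did. They were in the 3′ UTR of 7 of the 10 members and of 29.93% of the 10796 protein-coding genes tested that had one annotated, on the mRNA strand in GENCODE M21. Pooled over 3′ UTRs there were 0.870 per kb in the members and 0.278 per kb in those genes, with median 3′ UTR lengths of 1000.5 and 1190 bases. Capitals mark the matches in 30-base stretches of mRNA, written as DNA, for the 6 members with a match that passed the count filter.
Zfp36: ccttTATTTATgacgacttTATTTATtgta
Fos: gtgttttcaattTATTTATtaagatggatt
Jun: tttgcttgtgcaTATTTATaatagcgttcg
Jund: ccgattccgcccTATTTATgtttctactcg
Atf3: gaaaatattactTATTTATcccagtattcc
Btg2: aaaatgaagagcTATTTATacatgtttttt

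Zfp36 held 3 matches in 774 bases, Fos 2 in 815 bases, and Fosb, Jun, Jund, Atf3 and Btg2 held 1 each. Junb, Egr1 and Ier2 held none of these letters. Of the 7 with a match, Jun, Btg2 and Zfp36 were called in a main comparison, and Fos, Fosb, Jund and Atf3 were not. Of the 3 without one, Junb and Egr1 were called and Ier2 was not. No association of the match with the response was tested.

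**Figure D2:**
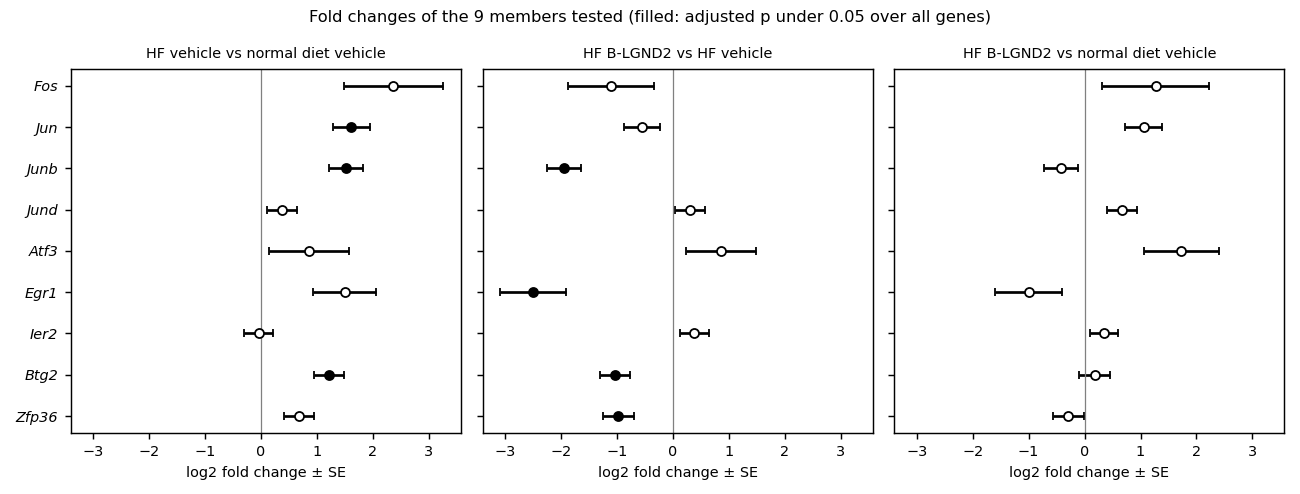
Log2 fold change ± SE (horizontal axis) of the 9 immediate early genes tested, for high fat vehicle against normal diet vehicle (left), high fat B-LGND2 against high fat vehicle (middle) and high fat B-LGND2 against normal diet vehicle (right); filled points passed the adjusted p of 0.05 over all genes. Junb, Jun and Btg2 are filled on the left, Junb, Egr1, Btg2 and Zfp36 in the middle, and no gene on the right.

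In B-LGND2 against normal diet vehicle livers, 0 of the 9 members tested were called by edgeR, where 1.59% of all genes tested were called higher and 1.33% lower (2.93% in all). At an unadjusted p under 0.05 there were 3, Jun, Jund and Atf3, where 19.4% of all genes were, and all 3 were higher with B-LGND2. Jun was the 1 member whose groups did not overlap, higher with B-LGND2, against 10.5% of all genes. limma-voom called 0 of the 9 and the DESeq2 Wald test 1, Jun (adjusted p = 0.0494). The log2 fold change was 0.68 for Jund (SE 0.27, adjusted p = 0.179) and 1.73 for Atf3 (SE 0.68, adjusted p = 0.175). With offsets for transcript length and GC content the Jund value was 0.28 (adjusted p = 0.527). Without B-LGND2 replicate 2 the Atf3 value was 0.83 (adjusted p = 0.551). Egr1 gave -0.998 (SE 0.60, adjusted p = 0.379) and Junb -0.42 (SE 0.30, adjusted p = 0.461). The median of the 9 was 0.35, against -0.01 over all genes.

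Levels between genes can be set side by side only per length, here CPM per kb of exon bases. In high fat vehicle livers Ier2 (36.0 ± 4.12), Junb (33.0 ± 9.02), Zfp36 (31.2 ± 5.79) and Jund (27.7 ± 7.34) stood highest, and their ranges overlapped. Jun (11.4 ± 4.70), Btg2 (7.62 ± 1.91) and Egr1 (5.30 ± 2.99) followed, with neighbours overlapping, and Fos (0.934 ± 0.118) and Atf3 (0.731 ± 0.134) came last of those tested. In B-LGND2 livers Ier2 (47.0 ± 19.9) and Jund (34.1 ± 9.60) were the top pair and overlapped, while Zfp36 stood at 15.9 ± 1.23 and Junb at 8.49 ± 3.30. In normal diet vehicle livers the order began with Ier2 (37.0 ± 1.41), Jund (21.4 ± 4.12) and Zfp36 (19.5 ± 8.46), and Junb stood at 11.4 ± 2.49 (all mean ± SD, n = 3).

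The members varied more between mice of 1 group than most genes did, apart from the normal diet. Their median coefficient of variation of CPM was 38.9% in B-LGND2 livers against 24.9% over all genes tested, 25.1% against 14.1% in high fat vehicle livers, and 25.8% against 25.8% in normal diet vehicle livers. In the high fat groups 7 of the 9 were above the median gene, and in the normal diet group 4 were. Atf3 and Fos counted few reads, which adds counting error to theirs. Egr1 had a coefficient of 90.4% with B-LGND2, 56.4% in high fat vehicle livers and 29.9% in normal diet vehicle livers, whereas Ier2 had 42.3%, 11.5% and 3.82% in the same groups.

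Taking each member's standardised log2 CPM, the mean over the 9 tested was highest in the 3 high fat vehicle livers, 0.99, 0.53 and 0.45 SD units, and lowest in normal diet vehicle livers, -0.39, -0.55 and -0.72. The B-LGND2 livers were far apart, at 0.41, 0.00 and -0.71: the first and second lay between the vehicle groups and the third within the normal diet range. Among protein-coding genes outside the set, the 8 whose levels over the 9 libraries were most like this mean were Proz, which encodes the plasma protein Z, and Zdhhc8, Slc15a4, Pi4ka, Pigr, Inf2, Sardh and Cog7, with Pearson correlations of 0.912 to 0.950 among 10179 candidates. The same libraries and their composition enter every such value, and none of the 8 was called in any of the 3 comparisons. Pigr, the polymeric immunoglobulin receptor, came nearest, at 0.86 for diet (adjusted p = 0.0513) and -0.72 for B-LGND2 against high fat vehicle (adjusted p = 0.0703). Within the set, the members did not all follow one another. Each member's Pearson correlation with the mean of the other tested members ran from -0.02 for Ier2, 0.17 for Atf3 and 0.38 for Egr1 to 0.81 for Jun.

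The genes themselves are short and GC-rich: 8 of the 10 were below the median transcript length of the 10824 protein-coding genes tested (members' median 2426 bases against 3426) and 9 of the 10 above the median GC content (55.8% against 49.8%). These are the properties with which the libraries differed. With offsets for both, Jun, Junb and Btg2 were still called for diet and Jund was added, and Junb, Egr1, Btg2 and Zfp36 were still called for B-LGND2 against high fat vehicle.

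**Figure D3:**
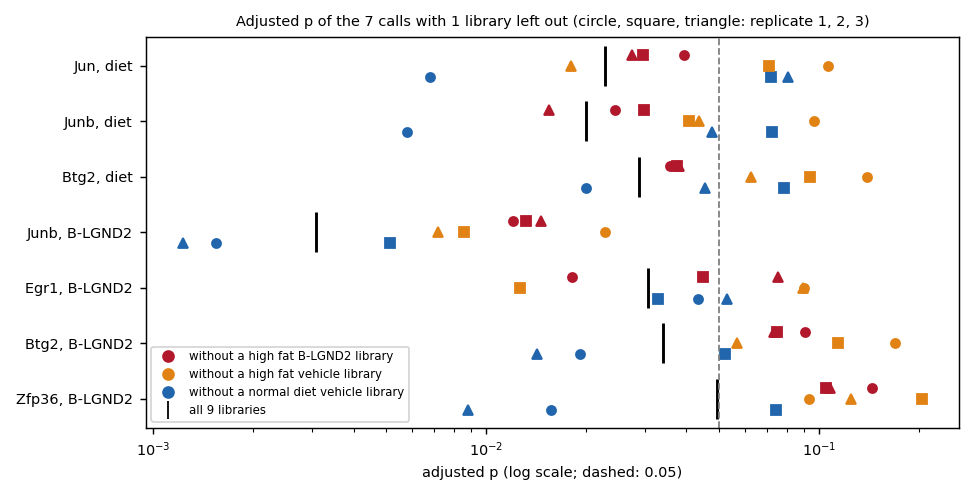
Adjusted p (horizontal axis, log scale; dashed line 0.05) of the 7 calls among the members when 1 of the 9 libraries is left out; colours give the group of the library left out, circles, squares and triangles are replicates 1, 2 and 3, and the vertical bar is the value with all 9 livers. The fall of Junb with B-LGND2 stays left of the line in every fit, and the fall of Zfp36 crosses it in all but 2.

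Of the 7 calls, 6 were lost in at least 1 fit without a library, mostly in fits where calls over all genes fell too. Over all genes 362 were called for diet with all 9 livers, against 35, 66 and 39 when high fat vehicle replicate 1, 2 or 3 was left out. The number was 89 when normal diet vehicle replicate 2 was left out and 79 for its replicate 3. Without high fat vehicle replicate 1 the adjusted p for diet was 0.106 for Jun, 0.0970 for Junb and 0.140 for Btg2, at log2 fold changes of 1.30, 1.28 and 1.01. Without normal diet vehicle replicate 2 the adjusted p was 0.0716, 0.0723 and 0.0788 in the same order, at 1.63, 1.38 and 1.20. Jun also missed the threshold without high fat vehicle replicate 2 (0.0706) and normal diet vehicle replicate 3 (0.0809), and Btg2 without high fat vehicle replicate 2 (0.0944) or 3 (0.0624). For B-LGND2 against high fat vehicle, Egr1 missed it without high fat vehicle replicate 1 (0.0903) or 3 (0.0897), B-LGND2 replicate 3 (0.0754) or normal diet vehicle replicate 3 (0.0531). Btg2 missed it in 7 of the 9 fits (up to 0.169, without high fat vehicle replicate 1), and so did Zfp36 (up to 0.205, without high fat vehicle replicate 2). For both, the fits that kept the call were those without normal diet vehicle replicate 1 or 3. Over these fits Btg2 ranged from -1.20 to -0.83 and Zfp36 from -1.09 to -0.82 on the log2 scale. For this comparison 681 genes were called in all with 9 livers, 123, 100 and 184 when high fat vehicle replicate 1, 2 or 3 was left out. The number was 1212 when normal diet vehicle replicate 1 was left out and 1439 for its replicate 3. All 7 values kept their direction in every such fit.

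Genes of the same pathways were read from lists with the 10 members left out. The lists, too, were chosen with earlier results of these data known. Their counts stand against 2.99% of all genes tested called for diet and 5.63% called for B-LGND2 against high fat vehicle. Among the AP-1 and CREB partners tested, 1 of 12 was higher on the high fat diet, Mafg, a small Maf partner, at 155 ± 8.02 CPM in high fat vehicle and 86.1 ± 13.1 CPM in normal diet vehicle livers, which is a log2 fold change of 0.85 (SE 0.21, adjusted p = 0.0370). With B-LGND2 against high fat vehicle, Maff, another small Maf gene, was lower (log2 fold change -1.45, SE 0.34, adjusted p = 0.0233) and Batf was higher (2.87, SE 0.73, adjusted p = 0.0334). Batf had 27, 13 and 11 counts in B-LGND2 livers and 1, 2 and 3 in high fat vehicle livers, and passed the filter through the B-LGND2 libraries. The list's median was 0.62 for diet and -0.42 for B-LGND2.

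Of 15 other immediate early transcription factor genes tested, 2 were higher on the high fat diet, Nfil3 (log2 fold change 1.43, SE 0.32, adjusted p = 0.0293) and Bhlhe40 (1.08, SE 0.24, adjusted p = 0.0300), both also clock-linked repressors. With B-LGND2 1 was lower than in high fat vehicle livers, Cebpb (-0.94, SE 0.25, adjusted p = 0.0401), a bZIP factor of acute phase and regeneration. Klf4 was the 1 called in B-LGND2 against normal diet vehicle livers, with 38, 13 and 21 counts against 4, 4 and 0, and it passed the filter through the B-LGND2 libraries. The list's median was 0.47 for diet and 0.02 for B-LGND2, a value whose sign turned with scaling by library size alone (-0.15).

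Of 20 immediate early genes for signalling and secreted proteins tested, 3 were higher on the high fat diet. Per1, a clock repressor that is also a CREB target, stood at 72.3 ± 8.14 CPM in high fat vehicle and 28.4 ± 3.60 CPM in normal diet vehicle livers (adjusted p = 0.00703), Errfi1, an inhibitor of EGF receptor signalling, rose by 0.99 on the log2 scale, and the kinase gene Pim3 rose by 0.83. With B-LGND2 4 of the 20 were lower, Pim3 at 83.7 ± 7.70 CPM against 218 ± 25.6 CPM in high fat vehicle livers (adjusted p = 0.00199), Plk3 at 22.3 ± 7.28 against 85.7 ± 32.1 CPM (adjusted p = 0.00781), Per1 at 31.9 ± 4.57 CPM (adjusted p = 0.00829) and Pim1 at 14.5 ± 3.63 against 31.2 ± 14.1 CPM (adjusted p = 0.0481). The list's median was 0.69 for diet and -0.21 for B-LGND2.

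Feedback inhibitors, which end MAP kinase, cytokine and NF-kB signals, gave 4 of 14 higher on the high fat diet. Spry4, an inhibitor of receptor tyrosine kinase signalling, had the largest difference (2.12, SE 0.38, adjusted p = 0.0144), with 266, 267 and 398 counts in high fat vehicle and 63, 47 and 103 in normal diet vehicle livers. Nfkbiz (1.54), Socs3 (1.53) and the ERK phosphatase gene Dusp6 (1.42) followed, with adjusted p of 0.0220, 0.0253 and 0.0454. With B-LGND2 1 of the 14, Nfkbiz, was lower (-1.39, SE 0.31, adjusted p = 0.0202). Socs3, an inhibitor of JAK and STAT signalling, was not: it had 519, 276 and 665 counts in B-LGND2, 297, 278 and 199 in high fat vehicle and 87, 77 and 106 in normal diet vehicle livers, and was higher in B-LGND2 than in normal diet vehicle livers (2.36, SE 0.33, adjusted p = 0.00117).

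Upstream of the set, 1 of 23 genes for MAP kinases, SRF, its partners and CREB regulators was called for diet and 1 for B-LGND2, both times Mrtfb (older symbol Mkl2), an SRF coactivator. It stood at 17.4 ± 4.56 CPM in B-LGND2 livers, 42.9 ± 1.15 CPM in high fat vehicle livers and 17.5 ± 6.12 CPM in normal diet vehicle livers (adjusted p = 0.0159 with B-LGND2, 0.0253 for diet). These counts are near the share of all genes called. The list's median was 0.03 for diet and 0.08 for B-LGND2. Of the EGR corepressor genes Nab1 and Nab2, 0 of 2 passed in any comparison.

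Some relatives of Btg2 and Zfp36 were called, in the directions in which both genes moved, though Zfp36 itself was not called for diet. In the BTG and TOB family 1 of the 3 others tested, Tob2, was higher on the high fat diet (1.08, SE 0.25, adjusted p = 0.0342) and lower with B-LGND2 (-0.91, SE 0.25, adjusted p = 0.0451). Of the 9 other genes of the tristetraprolin family and AU-rich mRNA decay, Zfp36l1 and Zfp36l2 were higher on the high fat diet (1.55 and 1.53, adjusted p = 0.0300 and 0.0454) and lower with B-LGND2 (-1.29 and -1.61, adjusted p = 0.0390 and 0.0276). Zfp36l1 stood at 35.1 ± 1.65 CPM in B-LGND2, 85.8 ± 8.32 CPM in high fat vehicle and 29.4 ± 20.7 CPM in normal diet vehicle livers.

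Each stress list gave 0 or 1 call in either main comparison. Of 9 integrated stress response genes other than Atf3, 0 were called for diet and 1 for B-LGND2 against high fat vehicle, the ATF4 target Chac1, lower (-1.43, SE 0.34, adjusted p = 0.0246). Of 9 heat shock genes tested, the co-chaperone gene Bag3 was higher on the high fat diet (0.94, adjusted p = 0.0393) and the mitochondrial chaperone gene Hspd1 lower with B-LGND2 (-0.96, adjusted p = 0.0375). Bag3 was also higher in B-LGND2 than in normal diet vehicle livers (1.41, SE 0.23, adjusted p = 0.00478).

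Most of these list calls were lost in some fit without a library, in fits where calls over all genes fell as well. Of 15 called for diet, Per1 was the 1 called in all 9 fits without a library, and 13 were lost without high fat vehicle replicate 1, 2 or 3 in turn, 13 without normal diet vehicle replicate 2 and 12 without its replicate 3. Of 15 called for B-LGND2 against high fat vehicle, Pim3 was the 1 called in all 9, and 13 were lost without B-LGND2 replicate 1 and 12, 11 and 10 without high fat vehicle replicates 1, 2 and 3. Of the 3 called in B-LGND2 against normal diet vehicle livers, Socs3 and Bag3 were called in all 9, and Klf4 was lost in 4. With offsets for transcript length and GC content, the diet counts became 1 of 14 feedback inhibitors (from 4), 0 of 12 AP-1 and CREB partners (from 1), 2 of 20 signalling genes (from 3), 0 of 3 in the BTG and TOB family (from 1) and 1 of 9 in the tristetraprolin and decay list (from 2).

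**Figure D4:**
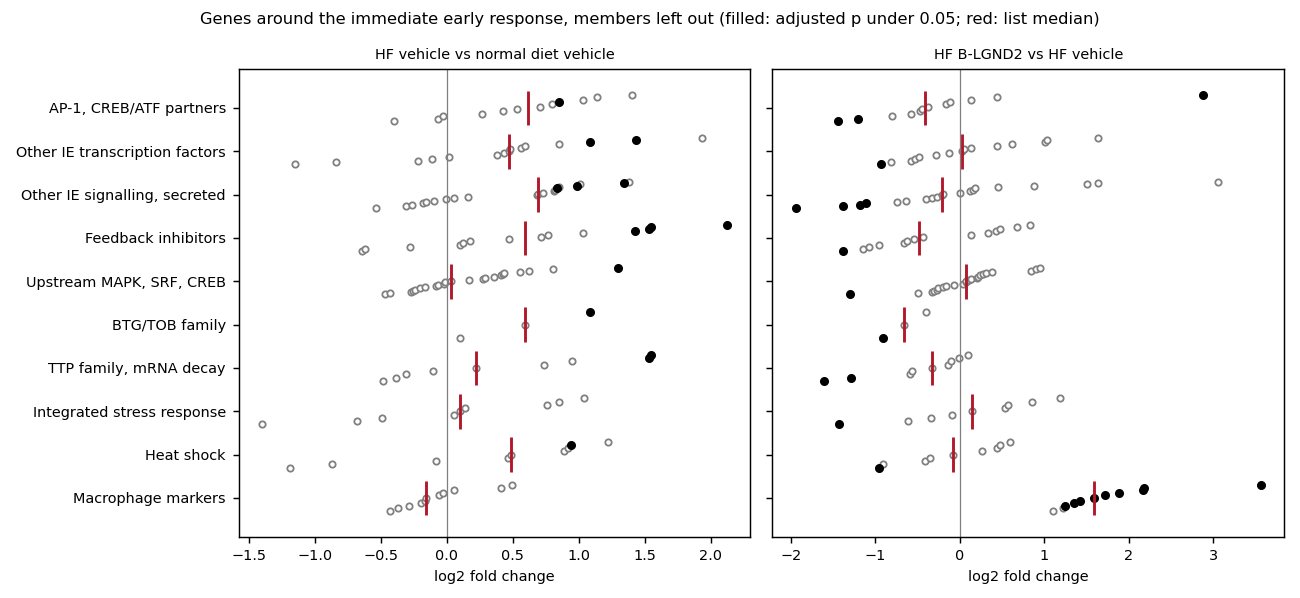
Log2 fold change (horizontal axis) of single genes in 9 gene lists around the immediate early response, members left out, and of macrophage markers, for high fat vehicle against normal diet vehicle (left) and high fat B-LGND2 against high fat vehicle (right); filled points had an adjusted p under 0.05 and red bars are list medians. The first 4 lists have medians of 0.47 to 0.69 on the left and of -0.49 to 0.02 on the right, where 9 of 11 macrophage markers are filled at the positive side.

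Markers of other liver cells differed to unlike degrees in the B-LGND2 comparison, where 3.07% of all genes tested were called higher. Of the 4 hepatocyte markers, 1 was called higher too. Of 11 macrophage markers, 9 were called higher with B-LGND2 than in high fat vehicle livers, among them Cd5l at 406 ± 72.2 CPM against 90.1 ± 16.8 CPM and C1qa at 169 ± 50.3 CPM against 37.2 ± 5.52 CPM. Their summed level was 1092 to 1356 CPM in B-LGND2 livers, 310 to 409 CPM in high fat vehicle livers and 318 to 517 CPM in normal diet vehicle livers. For diet 0 of the 11 were called, and their median log2 fold change was -0.16, beside the 1.21 of the immediate early members. Endothelial markers summed to 256 to 322 CPM with B-LGND2, 174 to 214 CPM in high fat vehicle livers and 187 to 235 CPM in normal diet vehicle livers, with 1 of 7 called higher. Stellate and fibroblast markers summed to 147 to 248, 140 to 171 and 144 to 173 CPM in the same order, with 0 of 7 called. Cholangiocyte markers summed to 52.2 to 65.3, 29.9 to 35.5 and 35.6 to 45.5 CPM, with 1 of 3 called higher with B-LGND2. Neutrophil markers stayed at or below 10.1 CPM in sum, with Ly6g and Mpo at 0 in every library, and lymphocyte markers at or below 2.33 CPM. Red cell markers summed to 204 to 271 CPM with B-LGND2, 114 to 236 CPM in high fat vehicle livers and 142 to 550 CPM in normal diet vehicle livers, with 0 of 5 called. The part of cell composition in the values of the immediate early genes was not tested.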

How the data were processed

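Per the labels' protocols, poly(A) RNA was made into Ion Torrent libraries and sequenced on a Proton instrument. The authors deposited unnormalized gene counts (whole reads) for 9 libraries. The submitters' processing notes name HTSeq 0.6.1p1, DESeq2 1.6.3, TopHat2 2.0.13, SAMtools 0.1.19, Bowtie2 2.2.4 and build GRCm38.p3. The annotation release, strand setting and assignment mode were not given in these sources. Symbols, lengths, GC content and coordinates (GRCm38, 1-based) came from GENCODE M21 by gene ID, and promoters from RefSeq (GRCm38.p6), with 8 of 10 members matched.

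Counts were tested in R 4.3.3 with edgeR 4.0.16: filterByExpr (minimum count 10), TMM scaling, and 1 robust quasi-likelihood fit by group to all 9 libraries (6 residual degrees of freedom), with 3 two-sided contrasts and Benjamini-Hochberg adjustment over 12102 genes. CPM uses TMM-scaled library sizes. SEs were derived from each log2 fold change and its F value. No exact permutation test was run, since 0.1 is the smallest p that 3 against 3 allows. The members and the 18 gene lists were chosen with earlier results of these data known. By rule, all members were named, then from each list and contrast up to 6 called genes with the smallest p, or the smallest-p gene where none was called, and the 8 genes most like the members' mean. Other genes named were chosen after their values were seen. A result that this rule would name is not reported here. The fit was tested on simulated counts. Of log2 changes of 1 it recovered 35% for diet and 29.2% for B-LGND2 against high fat vehicle. Of log2 changes of 2 it recovered 85.9% and 92.9% in the same order, with 13 and 8 false calls. Against normal diet vehicle it recovered 37.1% and 83.5% of log2 changes of 1 and 2, with 6 false calls. No pair of libraries was alike within sampling noise (smallest chi-square per degree of freedom 12.6). Alternatives used DESeq2 1.42.0, limma 3.58.1 and mgcv 1.9.3 (length and GC offsets). Counting intervals and limits cover counting error only, since amplified reads are not molecules.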

Additional observations from a re-analysis of the deposited data

How the results depend on the processing

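For diet, where 3 members were called, no filter on low counts gave 5 (Fos and Egr1 added), and fits without each library gave 0 to 4. For B-LGND2 against high fat vehicle, where 4 were called, fits without each library gave 1 to 4. For B-LGND2 against normal diet vehicle, where 0 were called, no filter gave 1 and the DESeq2 Wald test 1, Jun both times, and fits without each library gave 0 to 0. Deviations of same-numbered livers correlated at -0.08 to 0.12 for diet, 0.02 to 0.06 for B-LGND2 against high fat vehicle and -0.19 to 0.06 against normal diet. Differently numbered livers were not set beside them, so these values cannot decide whether the replicate numbers pair the livers. With the replicate number as a block, 2 members were called for diet (Jun, Junb), 2 for B-LGND2 against high fat vehicle (Junb, Egr1) and 0 against normal diet. Calls over all genes moved too: to 203, 492 and 253 with the block (from 362, 681 and 354), and to 35 to 1860, 100 to 1439 and 111 to 639 without each library.

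The log2 fold changes that changed sign were those of Ier2 for diet with library size only (0.13), and over fits without each library (-0.0874 to 0.0526, positive without high fat vehicle replicate 2), and of Jund with B-LGND2 against high fat vehicle under length and GC offsets (-0.59). In the same comparison Atf3 ranged from -0.0109 (without B-LGND2 replicate 2) to 1.219. In B-LGND2 against normal diet vehicle, Zfp36 ranged from -0.566 to 0.0761 (without normal diet vehicle replicate 1) and Ier2 from -0.0482 (without B-LGND2 replicate 1) to 0.547. Of 504 recomputed member values, 456 kept direction and side of the threshold, 36 lost a call, 6 gained a call and 6 changed sign. Most of the 504 had no call to lose. Of 19 refits each, calls with B-LGND2 were lost in 12 for Zfp36, 8 for Btg2, 4 for Egr1 and 0 for Junb. Calls for diet were lost in 6 for Btg2, 4 for Jun and 2 for Junb. Fos and Atf3 for diet had no adjusted p in the DESeq2 fit and were counted as kept. Zfp36 with B-LGND2 was also lost with DESeq2 size factors (0.0506), a 50-count filter (0.0539), limma-voom (0.0568) and dispersions without the robust option (0.0540). Over all genes, 362 were called for diet, 1182 with no filter, 984 by DESeq2 and 153 with only the 2 groups in the fit, and for B-LGND2 against high fat vehicle 681, 1345, 1123 and 1420 in the same order. Library size alone shifted the median of all genes by 0.17 for diet and -0.18 for B-LGND2, and the split of all calls to 260 higher and 98 lower (main 182 and 180) and to 211 and 468 (main 371 and 310), and the members' calls stayed the same. The counts and genes of the related lists were recomputed under the same alternatives after the data were seen. The cause of these changes was not tested.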

Other observations

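Egr1 did not peak in the same high fat vehicle livers as some other stimulus-responsive genes, which were chosen after their values were seen. Egr1 had 175, 57 and 243 counts in high fat vehicle replicates 1, 2 and 3, whereas the growth arrest gene Gadd45g had 86, 765 and 48, the STAT5 target Cish 108, 950 and 145, Myc 21, 217 and 22, and the MAP kinase phosphatase gene Dusp1 222, 575 and 225. Replicate 2 was thus low for Egr1 and high for the other 4, while Fos (12, 14 and 18) and Btg2 (161, 133 and 116) did not set it apart.

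Among the B-LGND2 livers, replicate 2 had 676 counts of the stress cytokine gene Gdf15, against 17 in each of the other 2, together with the highest Atf3 (38, against 16 and 7), the highest Fos (15, against 7 and 0) and the lowest Egr1 (8, against 71 and 17). In the same liver the early growth response gene Egr2 had 8 counts, against 1 and 0.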
